A study of Rattus norvegicus with 24 samples.

Results

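Class I odorant receptors are the G protein-coupled receptors of rat families Or51, Or52, Or55 and Or56, the older of the receptor classes that olfactory sensory neurons use to detect odorants. The 121 genes described here were all genes of these families with a probe set that carried a single gene symbol, with no filter on intensity and with the brighter probe set kept where a gene had 2. They were 121 of 14506 genes with such a probe set, and comprised 68 genes of family Or52, 42 of Or51, 9 of Or56 and 2 of Or55. The 931 measured class II receptors, of all other odorant receptor families, served for comparison.

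The arrays came from male Fischer rats of a laboratory colony, about 8 weeks old at the start, that inhaled 2 ppm formaldehyde by the nose only, 6 hours each day, on 7 or on 28 days. The gas was made by vaporizing paraformaldehyde labelled with heavy carbon and deuterium, and control rats were held in the same kind of tube with room air. RNA came from nasal epithelium, dissected from the maxilloturbinate, and from circulating white blood cells, and was measured on Affymetrix arrays in 8 groups of 3. The question was whether the gas changes gene expression where it first touches tissue and in circulating cells. Separate animals for each array are not stated in the labels, and the p-values may thus measure no more than technical spread. Values are log2 intensities, differences are exposed minus control with their standard error (SE) from limma on 3 arrays per group, and a gene was called at a Benjamini-Hochberg adjusted p under 0.05 over all 29214 probe sets.

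Each mature olfactory neuron expresses a single receptor gene, chosen from a single allele. Class I receptors are known mainly from the dorsal zone of the olfactory epithelium, where neurons carry the enzymes Nqo1 and Acsm4, and many respond to short carboxylic acids, whereas most class II receptors are spread over both zones, and ventral neurons carry the adhesion molecule Ncam2. The transcription factors Lhx2, Ldb1 and the Ebf proteins act on receptor gene choice, and Bcl11b acts on the choice between the classes. Class I genes lie in a cluster of their own that surrounds the beta globin genes.

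In the rat assembly GRCr8, as listed by RefSeq, all class I genes lie on chromosome 1 in a single stretch of 219 genes. It holds 167 class I genes (140 protein-coding and 27 pseudogenes), 5 other receptor genes and 47 non-receptor genes or pseudogenes. All 121 measured members are protein-coding genes of this stretch. RefSeq windows of 300 bases, 250 before and 50 after the annotated start, existed for 107 of the 121 members. In 107 of 107 the annotated start was the start codon, against 9% of all 33469 windows, so these windows show the sequence upstream of the coding region and not that around a transcription start. Their median GC content was 37.0%, against 35.3% for class II and 51.7% for all windows.

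The sequences below are the windows of a member that was higher in exposed nose with the largest difference, of a second higher member that also had a bright probe set, and of the single member that was lower. The capitals mark each match of TAATNA, a core that homeodomain proteins such as Lhx2 and Emx2 can bind, on either strand. The windows lie at chr1:169013870-169014169 (minus strand), chr1:166410379-166410678 (plus strand) and chr1:166559971-166560270 (plus strand), and each is written 5′ to 3′ with the start codon opening the last 50 bases.
Or52x1: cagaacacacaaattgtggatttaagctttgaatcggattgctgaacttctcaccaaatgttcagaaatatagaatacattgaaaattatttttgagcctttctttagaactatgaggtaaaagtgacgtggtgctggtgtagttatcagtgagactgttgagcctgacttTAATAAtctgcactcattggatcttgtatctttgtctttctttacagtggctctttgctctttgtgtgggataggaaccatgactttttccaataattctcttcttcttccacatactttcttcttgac
Or51r1: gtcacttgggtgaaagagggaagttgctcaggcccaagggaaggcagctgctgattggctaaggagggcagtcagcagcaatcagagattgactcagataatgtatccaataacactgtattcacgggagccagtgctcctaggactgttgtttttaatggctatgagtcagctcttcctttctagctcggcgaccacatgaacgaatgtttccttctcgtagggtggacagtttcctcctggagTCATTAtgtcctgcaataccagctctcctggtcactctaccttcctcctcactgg
Or51e1: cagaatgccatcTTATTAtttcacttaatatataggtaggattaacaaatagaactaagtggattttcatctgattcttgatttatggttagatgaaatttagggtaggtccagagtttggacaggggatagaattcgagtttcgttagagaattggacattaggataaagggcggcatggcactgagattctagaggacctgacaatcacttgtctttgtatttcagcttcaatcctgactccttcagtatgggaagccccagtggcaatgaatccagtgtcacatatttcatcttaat
Each of the 3 windows held 1 match. TAATNA was present in 72 of 107 class I windows (67.3%), in 64.7% of 787 class II windows and in 28.0% of all windows, and receptor windows are richer in A and T than windows at large. CCCNNGGG, a core of Ebf sites, was present on either strand in 3 class I windows (2.8%), that of Or51r1 among them, against 0.889% of class II and 12.4% of all windows. TATAAA, which can share letters with a TAATNA match, was present in 34.6% of class I, 37.7% of class II and 14.2% of all windows. These shares describe letters in the windows and no binding.

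Many members were close copies of each other. Over the first 50 coding bases the nearest other member was identical at a median of 68% of positions, and 28 members had a neighbour at 90% or more. The pairs Or52a5 and Or52a5b, Or56b2 and Or56b2b, Or51b4 and Or51b4b, Or51q1 and Or51q1e, and Or52e15 and Or52e15b were identical there. How the array's probes separate such copies was not tested, so single members with a near-identical neighbour are uncertain. No member repeated the values of another probe set on every array (0 of 121).

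Arrays of a tissue and day had similar distributions, with medians of 8.25 to 8.28 for nose at 7 days, 7.35 to 7.42 for nose at 28 days, 7.45 to 7.50 for blood at 7 days and 6.82 to 6.90 for blood at 28 days. Levels are therefore not compared between days. In nose the mean of 18 measured markers of mature olfactory neurons was 9.16, 10.33 and 10.11 on the 7 day controls and 7.69, 9.80 and 9.51 on the 28 day controls. Replicate 1 stood lowest in both control groups, and the calls and larger differences in exposed against control nose are given with and without it. The mean of 11 respiratory epithelium markers was 9.25 to 10.31 over all nasal arrays, so both kinds of epithelium gave signal in tissue labelled as maxilloturbinate. In such bulk tissue fewer cells of a type and less RNA per cell cannot be told apart.

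Most class I receptors read brighter in control nose than in control blood, a tissue that should lack odorant receptors. At 7 days 113 of 121 were higher in nose and 0 lower, with 59.5% and 13.7% of all probe sets called higher and lower. The median difference was 1.01, which is 0.57 above the median of all probe sets (0.44). At 28 days 115 were higher and 0 lower (51% and 20.8% of all probe sets), with a median of 1.04, 0.75 above that of all probe sets. The arrays of both tissues lay on different scales, and the calls depended on them. With each array centred on its median, 39 members were higher and 18 lower at 7 days, and 72 were higher and 5 lower at 28 days, with medians of 0.19 and 0.52. In that setting the median of all probe sets moved from 0.44 to −0.38 and from 0.29 to −0.23. The shares of all probe sets called there are not given, so the centred counts cannot be set against them.

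The 6 members with the largest nose minus blood difference at 7 days were Or51f1f (3.24 ± 0.25), Or52j3b (3.18 ± 0.48), Or51e1 (2.59 ± 0.10), Or52a5b (2.57 ± 0.38), Or52e4 (2.52 ± 0.47) and Or56b2b (2.47 ± 0.38). Their limma adjusted p-values ran from 5.19e-15 for Or51e1 to 8.12e-05 for Or52e4. Or51f1f stood at 6.93, 8.10 and 7.46 on the 3 control noses and at 4.55, 4.11 and 4.12 on the 3 control bloods. At the other end, 8 members were not called, among them Or51b4 at 3.49, 3.41 and 3.54 in nose against 3.20, 3.37 and 3.05 in blood. Nose signal reached the 25th percentile of all probe sets (6.61) in 66 members on average over the 12 nasal arrays and lay under it in 55. In blood 28 members reached that tissue's percentile (5.96).

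**Figure D1:**
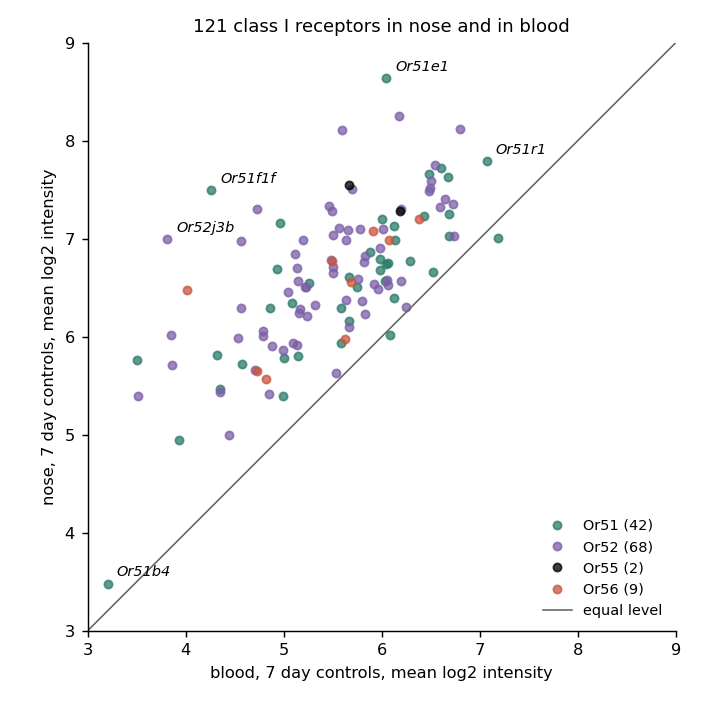
Mean log2 intensity of each of the 121 class I receptors in blood (x axis) and nose (y axis) of the 7 day controls, 3 arrays each, coloured by family, with the line of equal level. Nearly all points lie above the line, with Or51f1f and Or52j3b far above it and Or51b4 at 3.48 in nose close to it.

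The members with the brightest probe sets over the 6 control noses were Or51e1 (8.26), Or52ac1 (7.83), Or52k1 (7.80), Or52e4 (7.74), Or51r1 (7.57) and Or52n2e (7.52). Probe sets differ in how brightly they read, so these values are not an order of transcript levels. For Or52k1 the 7 day controls read 7.36, 9.14 and 8.26 and the exposed arrays 8.72, 8.93 and 8.50. For Or52ac1 the controls read 7.53, 8.63 and 8.19 and the exposed arrays 8.51, 8.76 and 8.27. In both genes control replicate 1 was the lowest control and the groups overlapped. The differences of 0.46 ± 0.42 and 0.40 ± 0.26 were not called. With control replicate 1 left out these differences were 0.010 ± 0.373 and 0.10 ± 0.23. Or52n2e read 7.14, 8.19 and 7.92 in controls and 8.35, 8.46 and 8.14 in exposed nose, and was not called either (0.57 ± 0.22, and 0.26 ± 0.13 without that array).

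After 7 days of formaldehyde 7 of 121 class I receptors rose in nose and 1 fell, while 113 did not pass the test. The share that rose, 5.79%, was close to the 7.22% of all probe sets called higher, and 5.62% of all probe sets were called lower. In the same fit 559 of 931 class II receptors rose (60.0%) and 0 fell. The class I median difference was 0.43, with a range of −0.32 to 1.44 and 112 of 121 values above 0, against medians of 1.06 for class II and −0.05 for all probe sets. At an unadjusted p under 0.05, 47 members were higher (38.8%, against 12.2% of all probe sets) and 1 was lower (against 14.2%). The difference between the classes itself was not tested.

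**Figure D2:**
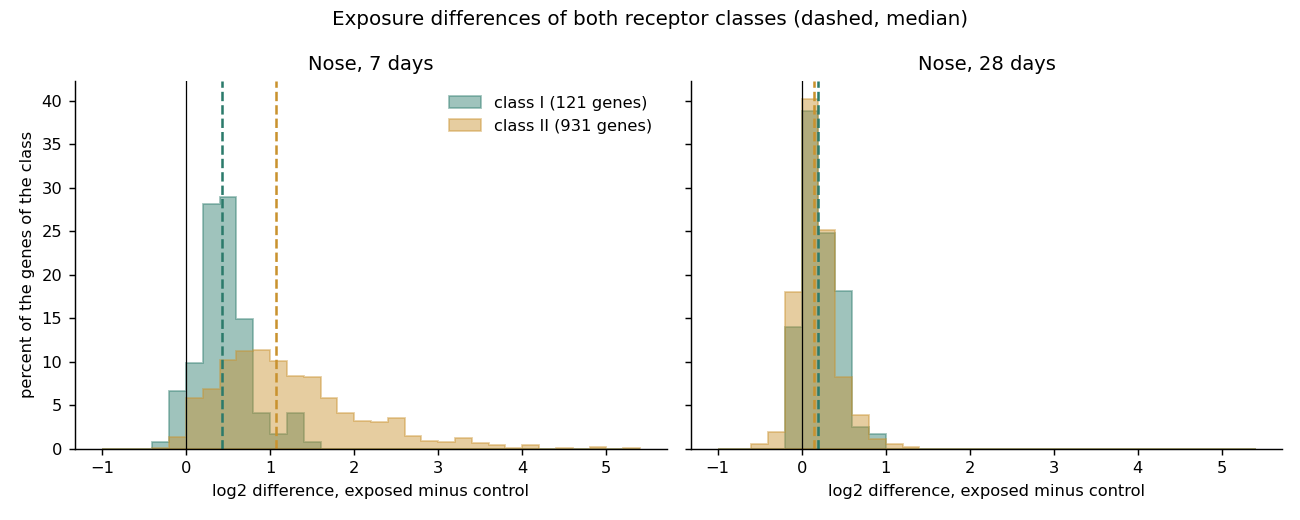
Distribution of the exposed minus control log2 difference in nose at 7 days (left) and 28 days (right), as the percent of the 121 class I and of the 931 class II genes in bins, with a dashed line at each median. At 7 days the class I genes sit between −0.32 and 1.44 around a median of 0.43 while class II genes reach 5.31, and at 28 days the medians of 0.20 and 0.14 lie close together.

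Or52x1 (gene 293339, probe set 10724443) had the largest difference of the class. It read 6.62, 6.64 and 6.88 on the 7 day controls and 8.76, 7.83 and 7.88 on the exposed arrays. All exposed arrays lay above all controls, the controls lay close together, and exposed replicate 1 was the brightest. The rise was 1.44 ± 0.23 with a limma adjusted p = 0.00408, and with any 1 array left out the gene was still called (6 of 6 fits, 1.14 to 1.61).

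The other 6 members that rose differed by less. Or52z12 rose by 0.76 ± 0.19, from 5.66, 6.19 and 5.86 to 6.89, 6.78 and 6.30. Or51p1 rose by 0.62 ± 0.17, from 5.86, 6.19 and 5.75 to 6.75, 6.62 and 6.30. Or52ab2 rose by 0.68 ± 0.19, from 5.75, 6.41 and 5.90 to 6.55, 7.07 and 6.46. The groups did not overlap in the values of these 3 genes, and control replicate 2 was the brightest control of each.

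Or51r1, whose window is printed above, read 7.81, 7.90 and 7.68 in control and 8.58, 8.35 and 8.04 in exposed nose, a rise of 0.53 ± 0.13. Or56b6c rose by 0.54 ± 0.15, from 6.37, 7.03 and 6.92 to 7.30, 7.32 and 7.30. Over the first 50 coding bases it was 94% identical to Or56b6b, so its identity as a single member is uncertain. Or52h7 rose by 0.34 ± 0.10, from 7.05, 7.23 and 7.01 to 7.53, 7.47 and 7.30. The exposed arrays lay above the controls in each, and for Or56b6c the exposed values were almost equal while control replicate 1 was low. The limma adjusted p of the 6 genes ran from 0.0224 for Or51r1 to 0.0439 for Or52h7. With 1 array left out in turn, Or56b6c was called in 1 of 6 fits and the other 5 genes in 2 of 6 each.

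Or51e1 (gene 365323, probe set 10724238) was the single member that fell. It is a receptor for short and branched fatty acids that is also known outside the nose, in tissues such as prostate and carotid body. It read 8.73, 8.60 and 8.59 in control and 8.28, 8.29 and 8.39 in exposed nose at 7 days, so that the exposed arrays lay below all controls. The fall was −0.32 ± 0.09 with a limma adjusted p = 0.0492, and with 1 array left out it was called in 0 of 6 fits (adjusted p from 0.0717 to 0.188). Its related receptor Or51e2, also known outside the nose, was not analysed here. At 28 days Or51e1 read 7.88, 7.82 and 7.97 in control and 7.65, 7.95 and 7.93 in exposed nose, a difference of −0.04 ± 0.09 that was not called.

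**Figure D3:**
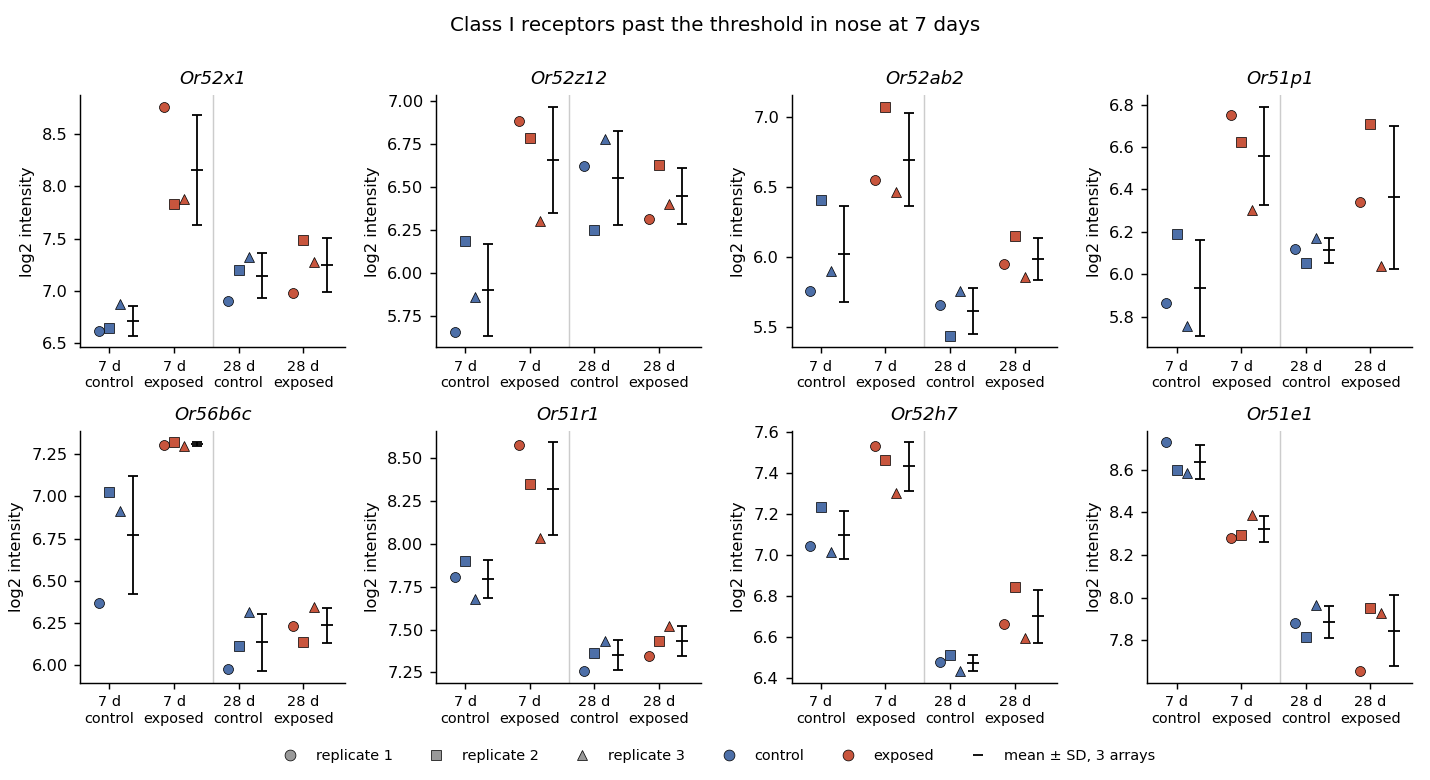
Log2 intensity of the 8 class I receptors called in nose at 7 days, on each of the 12 nasal arrays, with marker shape for the replicate and the mean ± SD of 3 arrays beside each group. At 7 days 7 genes sit higher in the exposed group and Or51e1 lower, while at 28 days none of the 8 was called.

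Some large differences did not pass, in genes whose controls differed widely among themselves. Or52j3b read 5.16, 8.34 and 7.47 in control and 8.30, 8.74 and 8.06 in exposed nose, and its difference of 1.37 ± 0.64 had a limma adjusted p = 0.206. Or52e4 read 6.50, 9.40 and 8.43 in control and 8.83, 8.96 and 8.37 in exposed nose, a difference of 0.61 ± 0.63. In both genes control replicate 1 lay lowest by a wide gap and control replicate 2 lay within or above the exposed range. Or52ae7b (1.30 ± 0.43), Or52ae7 (1.23 ± 0.42), Or51f1g (1.22 ± 0.48) and Or52n2 (1.21 ± 0.46) had differences above 1 with no call, and these 4 and Or52j3b at 7 days were singled out after their values were seen. With control replicate 1 left out the difference was 0.46 ± 0.38 for Or52j3b and −0.19 ± 0.47 for Or52e4, and those of the other 4 fell to between 0.61 (Or52n2) and 0.79 (Or52ae7).

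This order of the controls ran through the class. Control replicate 1 gave the lowest of the 3 values in 98 of 121 class I receptors (81.0%) and control replicate 2 the highest in 102 (84.3%). Among 931 class II receptors the same arrays were lowest in 49.3% and highest in 48.4%, and among all probe sets lowest in 33.0% and highest in 29.4%. In exposed nose replicate 3 was the lowest in 102 class I receptors (84.3%). The class I median was 6.33, 6.97 and 6.66 on the controls and 7.21, 7.21 and 6.93 on the exposed arrays, so control replicate 2 reached the exposed range. For class II it was 6.04, 6.28 and 6.25 against 7.75, 7.26 and 7.28, with no overlap.

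At 7 days the spread between control arrays was larger in class I than in class II, and at 28 days it was smaller. At 7 days the median SD over the 3 controls was 0.35 for class I, 0.22 for class II and 0.09 for all probe sets, and over the exposed arrays 0.21, 0.34 and 0.09. Over the 28 day controls it was 0.22 for class I, 0.31 for class II and 0.21 for all probe sets. Over the 28 day exposed arrays it was 0.23, 0.25 and 0.10. Values of exposed and control arrays did not overlap, with exposed higher, in 26 class I receptors (21.5%, against 18.3% of all probe sets) and in 80.5% of class II. Exposed lay wholly below control in 2 members, Or51e1 and Or51aa2, against 27.8% of all probe sets. Or51aa2 differed by −0.07 ± 0.11 and was not called.

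The number of members called changed with single arrays. Without control replicate 1, 1 member was called (Or52x1), the class I median was 0.26 and that of class II 0.90, with 44.7% of class II and 2.94% of all probe sets called higher. Without control replicate 2, 24 members were called, all higher (19.8%, against 53.7% of class II and 5.24% of all probe sets), with a median of 0.62. Without control replicate 3 it was 1 member (0.826%, against 47.2% of class II and 3.90% of all probe sets), and without exposed replicate 1 also 1 (43.8% of class II and 2.78% of all probe sets). Without exposed replicate 2 it was 2 (1.65%, against 57.4% and 5.69%), and without exposed replicate 3 it was 9 (7.44%, against 57.1% and 5.74%), all of them higher. The class I share was thus above that of all probe sets in 2 of the 6 fits and below it in 4, and below that of class II in all 6. The class I median stayed between 0.26 and 0.62 over these 6 fits and that of class II between 0.90 and 1.20.

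**Figure D4:**
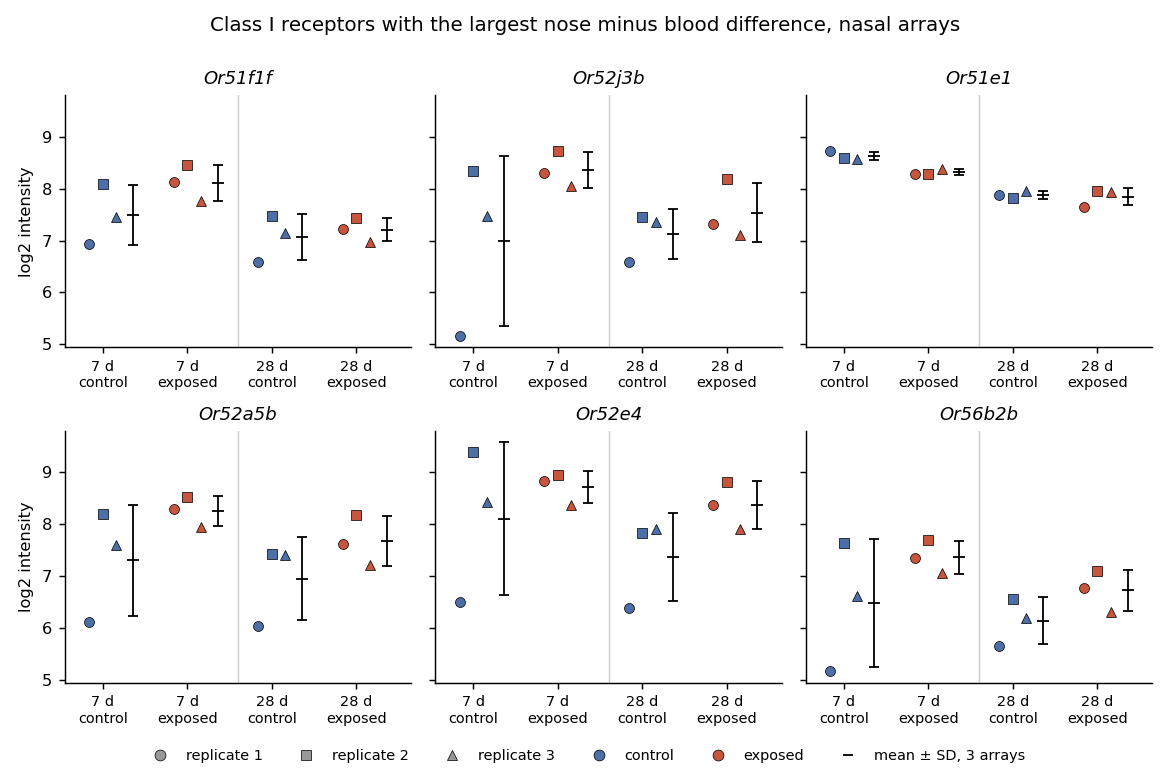
Log2 intensity on the 12 nasal arrays of the 6 class I receptors with the largest nose minus blood difference, with the mean ± SD of 3 arrays per group. In 5 of them control replicate 1 (circle) lies below replicates 2 and 3 at both days, while Or51e1 keeps a narrow range around 8.64 in the 7 day controls.

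Most markers of olfactory neurons and of receptor choice had differences above 0 at 7 days. Their counts stand against the 7.22% of all probe sets called higher and 5.62% called lower. Of 18 measured genes of mature olfactory neurons 7 rose at 7 days and 0 fell, with a median of 1.47; among them were Cngb1, a subunit of the odour transduction channel, at 1.17 ± 0.23, and Slc24a4, an ion exchanger of the cilia, at 1.88 ± 0.34. The mean of the list rose from 9.16, 10.33 and 10.11 to 11.63, 11.27 and 11.24. Of 19 genes of immature neurons and progenitors 5 rose and 0 fell, with a median of 1.20; among them was Gap43, a growth cone protein, at 0.79 ± 0.19. Of 13 measured genes of receptor choice 4 rose and 0 fell, among them the receptor transport protein Rtp1 at 1.81 ± 0.47 and Ebf1 at 1.34 ± 0.30, while Lhx2 (1.81 ± 0.67) and Ldb1 (0.21 ± 0.09) did not pass. In 2 of the 13 genes the difference was below 0 (lowest −0.34) and the exposed arrays lay wholly below the controls, with neither called. Bcl11b was not analysed here. The lists overlap: Lhx2, Ldb1, Emx2, Ebf1 and Ebf2 stand also among the immature neuron genes, and Rtp1, Rtp2 and Adcy3 among the mature ones. The receptor choice list is thus no separate set. Only Atf5, Kdm1a, Cbx5, Lbr and Eif2ak3 stand in it alone. Without control replicate 1 their differences were 1.03 ± 0.40, 0.07 ± 0.10, 0.04 ± 0.15, −0.20 ± 0.17 and −0.31 ± 0.22, none called. With control replicate 1 left out, where 2.94% of all probe sets were called higher, 2 of the 18 mature neuron genes were called, Slc24a4 (1.66 ± 0.37) and the receptor transport protein Rtp2 (0.97 ± 0.17), and Cngb1 was not (1.05 ± 0.25). In that fit 0 of the 19 immature neuron genes and 1 of the 13 receptor choice genes (Rtp2, which stands in both lists) were called, with Gap43 at 0.61 ± 0.19, Rtp1 at 1.43 ± 0.48 and Ebf1 at 1.18 ± 0.33, and the medians of the 3 lists were 1.15, 0.97 and 0.97. The part of these genes in the class I values was not tested.

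Zone markers did not move together. Acsm4, a marker of the dorsal zone, read 9.26, 11.39 and 11.12 in control and 11.74, 11.67 and 11.28 in exposed nose at 7 days, with control replicate 1 lowest and control replicate 2 within the exposed range, and its difference of 0.98 ± 0.77 was not called. Ncam2, of the ventral zone, read 7.31, 7.16 and 7.44 in control and 10.17, 9.18 and 9.48 in exposed nose, with no overlap and a rise of 2.31 ± 0.29 (limma adjusted p = 0.0013). Nqo1, the other dorsal enzyme, which also responds to oxidative stress, fell by 0.79 ± 0.20 on the log2 scale. With control replicate 1 left out Acsm4 stood at 0.31 ± 0.76, Ncam2 was still called (2.31 ± 0.34), and Nqo1 was not (−0.86 ± 0.23). Robo2, an axon guidance receptor, stood at 1.07 ± 0.34 and Sema3f at −0.23 ± 0.10, neither called, and Nrp2, the second measured ventral gene, at 0.21 ± 0.09, not called. At each day control replicate 1 was the lowest control for Acsm4, the class I median and the mean of the mature neuron markers. Whether zone accounts for the class I values was not tested.

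**Figure D5:**
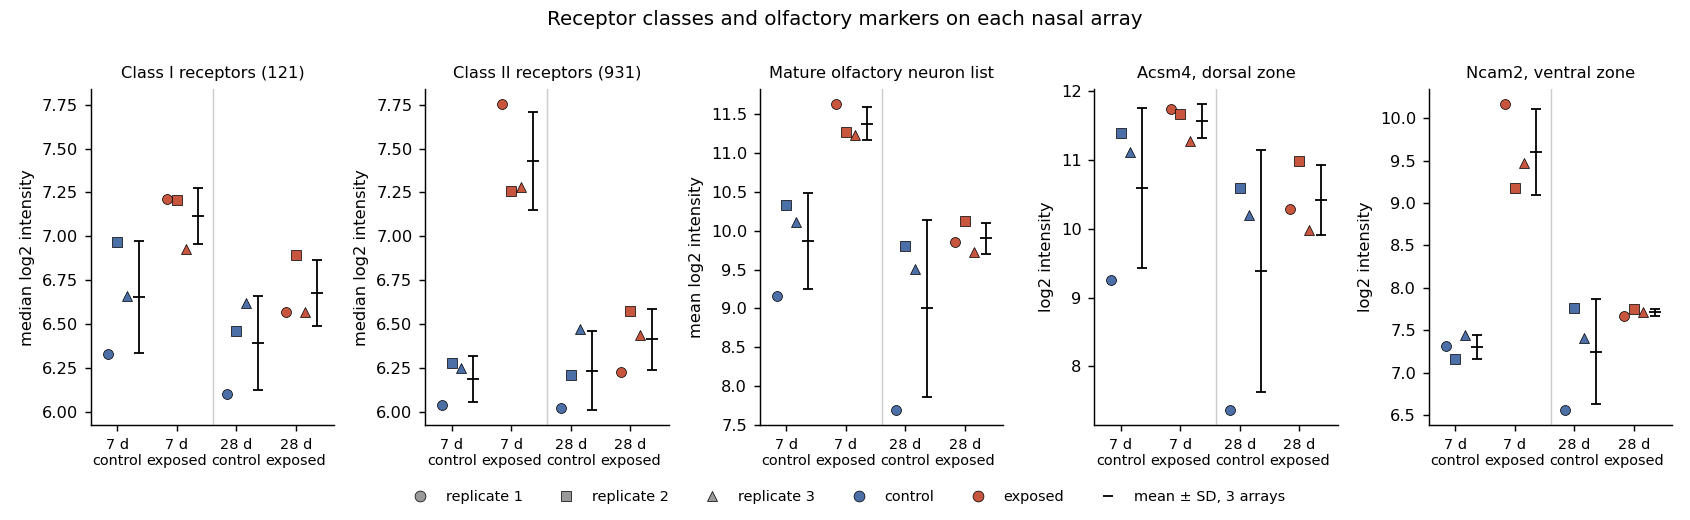
Median log2 intensity of class I and class II receptors, mean of the mature olfactory neuron list, and log2 intensity of Acsm4 and Ncam2 on each of the 12 nasal arrays, with the mean ± SD of 3 arrays per group. At 7 days control replicate 2 reaches the exposed range for class I (6.97) and Acsm4 (11.39). The 7 day controls of class II, the neuron list and Ncam2 lie wholly below it. Acsm4 and Ncam2 do not stand for their lists. Of 4 measured dorsal genes 1 lay wholly above control at 7 days and 2 wholly below, and of 2 ventral genes 1 lay wholly above.

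Genes of other cells that were called were all lower, where 5.62% of all probe sets were called lower and 7.22% higher. Most sustentacular and gland genes had differences above 0 with no call. Of 14 leukocyte genes 5 fell at 7 days, among them the pan-leukocyte phosphatase Ptprc (−0.93 ± 0.15), and the list mean went from 8.10 to 8.30 in controls to 7.75 to 7.82 in exposed nose. Of 6 erythroid genes 5 fell, among them Hbb, a beta globin, by 1.36 ± 0.29 on the log2 scale. Of 7 measured non-receptor genes that lie within the class I stretch 2 fell and 0 rose, Hbb and Hbb-b1, the second by 1.37 ± 0.32, so genes of the same stretch differed in direction. With control replicate 1 left out, where 0.986% of all probe sets were called lower, 1 leukocyte gene (Ptprc, −0.82 ± 0.16) and 2 erythroid genes (Slc4a1 and Alas2) were called, and Hbb (−1.33 ± 0.34) and Hbb-b1 (−1.31 ± 0.37) were not. With all arrays none of 11 sustentacular and gland genes (median 0.74) or 11 respiratory genes (median −0.16) was called (0 of 11 each). At an unadjusted limma p under 0.05, 2 sustentacular genes were higher and 2 respiratory genes lower (18.2% each), against 12.2% and 14.2% of all probe sets. Of the 11 sustentacular and gland genes 9 had differences above 0. Exposed arrays lay wholly above control in 7 of these 11 (63.6%, against 18.3% of all probe sets) and wholly below in 0. They lay wholly below control in 5 respiratory genes (45.5%, against 27.8%). Without control replicate 1 the medians were 0.37 and −0.08.

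Members varied together across nasal arrays. After the mean of each day was removed, the correlation of a member with the class I median over the 12 nasal arrays had a median of 0.88, and 103 of 121 members exceeded 0.5, where members share arrays and each member also counts in the median. The exposure difference was left in these values. No such correlation is given for class II receptors, so the pattern is not shown to be particular to class I. It was below 0 in 4 members: Or51e1 (−0.52), Or51aa2 (−0.21), Or51f4 (−0.13) and Or51b4 (−0.07). Or51aa2 read 6.66, 6.54 and 6.62 in control and 6.53, 6.53 and 6.53 in exposed nose at 7 days, and Or51f4 read 5.37, 5.26 and 5.55 against 5.37, 5.44 and 5.24. These 4 members were all of family Or51. By family the median difference at 7 days was 0.38 for Or51 (2 higher, 1 lower), 0.47 for Or52 (4 higher), 0.54 for Or56 (1 higher) and 0.30 for Or55 (0 called).

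The genes whose pattern over the 12 nasal arrays was most like that of Or52x1 were the class II receptor Or1j4 (r = 0.99), Olr1720 (0.99) and Or5aq6 (0.99). For Or51r1 they were Or4f6b, Or1f30 and C14h2orf74 (0.96 each), and for Or52z12 the class II receptors Or8b57, Or12d2b and Or4c125 (0.93 each). For Or52ab2 they were the class I receptors Or51q1, Or52ae9 and Or51a10 (0.94, 0.93 and 0.93), and for Or51p1 Or52h7, Or5p78 and Or52n1 (0.95, 0.94 and 0.93). Or52h7 was most like Selenot (0.96), Or51p1 and Ppp1r15a (0.94), and Or56b6c most like Cdc7 (0.95), Actl6b and Or5t16 (0.93 each). Or51e1 was most like Syt10 (0.96), Dlgap5l2 (0.94) and Gem (0.93), none of them a receptor of either class. These are descriptions over arrays that include the exposure groups.

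After 28 days no class I receptor was called (0 of 121), and limma called 0 of all probe sets higher and 0.00342% lower. At an unadjusted p under 0.05, 5 members were higher and 0 lower, against 5.55% and 7.08% of all probe sets. These 5, named after their values were seen, were Or52d3 (0.56 ± 0.23), Or52m2 (0.44 ± 0.18), Or51q1 (0.33 ± 0.15), Or52n4e (0.24 ± 0.11) and Or52h7 (0.23 ± 0.10). The class I median was 0.20, with a range of −0.154 to 0.996 and 104 of 121 values above 0, and that of class II was 0.14. Exposed arrays lay wholly above controls in 13 members (10.7%, against 6.16% of all probe sets) and wholly below in 0 (against 7.95%).

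The members with the largest positive differences at 28 days shared a low control replicate 1. Or52e4 read 6.39, 7.83 and 7.90 in control and 8.37, 8.82 and 7.91 in exposed nose (0.996 ± 0.629). Or52a5 read 5.89, 7.24 and 7.28 against 7.77, 7.84 and 7.41 (0.87 ± 0.46). Or51g1 read 5.96, 6.60 and 6.83 against 7.08, 7.70 and 6.80 (0.73 ± 0.36), and Or52a5b had a difference of 0.72 ± 0.51, with none of the 4 called. Without that control the 4 differences were 0.50 ± 0.65, 0.42 ± 0.43, 0.48 ± 0.38 and 0.26 ± 0.50, in the same order.
Replicate 1 was the lowest control in 82 members (67.8%), against 65.7% of class II and 37.2% of all probe sets. It was also the array with the lowest neuron list mean (7.69), an Acsm4 of 7.37 against 10.60 and 10.20 on the other controls, and a class I median of 6.10 against 6.46 and 6.62. Without it the class I median difference was 0.12, that of class II 0.04, and 0 members were called, while 264 of all probe sets were called higher (0.904%) and 452 lower (1.55%). Leaving out exposed replicate 2 gave a class I median of 0.092, the lowest of the 6 such fits. The exposed arrays had class I medians of 6.57, 6.90 and 6.57.

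The lowest differences at 28 days were those of Or52ad1 (−0.15 ± 0.15), Or52z1 (−0.13 ± 0.26), Or52z12 (−0.10 ± 0.19) and Or51ac3 (−0.08 ± 0.27), all within their SE or about equal to it. Or52x1 read 6.91, 7.20 and 7.33 in control and 6.98, 7.49 and 7.27 in exposed nose, a difference of 0.10 ± 0.23 with overlapping groups. Of the other members called at 7 days, Or51r1 had a difference of 0.08 ± 0.13, Or56b6c of 0.10 ± 0.15, Or51p1 of 0.25 ± 0.17 and Or52ab2 of 0.37 ± 0.19 at 28 days, none called.

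Whether the exposure difference itself changed between the days was tested as an interaction, the 28 day difference minus that at 7 days. The 25th and 75th percentiles were 6.83 to 6.92 and 9.63 to 9.66 on the 7 day nasal arrays. On the 28 day nasal arrays they were 6.21 to 6.44 and 8.43 to 8.60, a narrower range. The part of this scale in the interaction was not tested. No class I receptor was called (0 of 121), against 0.0308% of all probe sets higher and 0.466% lower, and at an unadjusted p under 0.05 1 was higher and 3 were lower, against 6.26% and 6.19% of all probe sets. The median was −0.22 for class I and −0.84 for class II, of which 87 were called lower. For class I it ran from −0.40 to −0.019 when 1 array was left out, the latter without control replicate 1 of the 7 day group. Or52x1 had the lowest value, −1.34 ± 0.33 with a limma adjusted p = 0.121, and it was called without control replicate 1 of the 28 day group (−1.46, adjusted p = 0.0361). The others with an unadjusted p under 0.05 were Or52z12 (−0.86 ± 0.27), Or51r1 (−0.44 ± 0.18) and, higher, Or52e3 (0.32 ± 0.14, named after its values were seen).

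In white blood cells no class I receptor was called at either day (0 of 121 each), where limma called 0.0479% of all probe sets higher and 0.14% lower at 7 days, and 2.56% and 0.626% at 28 days. At 7 days the median difference was 0.01 and the range −0.30 to 0.32, and at 28 days the median was −0.01 and the range −0.26 to 0.32. At an unadjusted p under 0.05, 2 members were higher and 2 lower at 7 days (1.65% each), below the 7.47% and 5.30% of all probe sets. They were Or52p1 (0.32 ± 0.12), Or51k2 (0.29 ± 0.11), Or52z12 (−0.30 ± 0.13) and Or51p1 (−0.26 ± 0.09). The last 2 had risen in nose, and no link between the tissues was tested. Or52a5 (0.32 ± 0.18) and Or52ad1 (−0.21 ± 0.14) completed the 3 largest differences in each direction.

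At 28 days 2 members were again higher and 2 lower in blood at an unadjusted p under 0.05, against 7.43% and 7.29% of all probe sets. They were Or51b4 (0.32 ± 0.13), Or52e15b (0.22 ± 0.08), Or52r1 (−0.26 ± 0.11) and Or52a5b (−0.20 ± 0.09), of which Or52e15b and Or52a5b were named after their values were seen. Or51f1g (0.25 ± 0.13), Or52d3 (0.22 ± 0.11), Or56b6 (−0.24 ± 0.16) and Or52n1 (−0.20 ± 0.13) were the other large differences. Or51e1 read 6.04, 5.94 and 6.16 in control and 6.14, 6.10 and 6.14 in exposed blood at 7 days, with overlapping groups and a difference of 0.08 ± 0.11. The median SE of a difference in blood was 0.11, against 0.20 for the same members in nose.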

How the data were processed

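The authors deposited 1 normalised intensity per probe set and array, on a linear scale and above 0 throughout; per the submitters' processing notes the tool was Partek. No label or file header used here names its version, the background correction or the normalization. In all, 24 arrays with 29214 probe sets each were analysed. Of the probe sets 15310 carried 1 symbol, 323 several and 13581 none, and symbols were updated by gene identifier through RefSeq GRCr8 (15279 matched). Another 7 probe sets naming several class I genes were left out.

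Values were put on the log2 scale. In R 4.3.3, limma 3.58.1 (lmFit, contrasts.fit, eBayes) was fitted to all probe sets with no filter, as 4 group means over the 12 nasal or the 12 blood arrays, or on all 24 arrays for nose minus blood. Tests were two-sided, with Benjamini-Hochberg adjustment over the whole table. Fits were tested on simulated data.

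Members and gene lists were chosen with earlier results of these data known. Named members were those called in nose, the 4 largest differences in each direction in nose at 28 days, the 6 brightest in control nose, the 6 largest nose minus blood differences at 7 days, the 3 largest in each direction in blood, and Or51e1. The fits of the marker lists without control replicate 1 were added after seeing the data. Most alike genes were the 3 with the highest Pearson r. Replicate numbers come from the sample titles. Same-numbered control and exposed arrays of nose at 28 days deviated together weakly (r of 0.133, 0.134 and 0.190). No label states a pairing, and these values do not establish one, since elsewhere r lay between −0.301 and 0.114. With a replicate block, run as a check, 0 members were called in nose at 28 days, as without it. Figures were drawn with matplotlib 3.10.9.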

Additional observations from a re-analysis of the deposited data

How the results depend on the processing

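With 3 arrays per group the number of class I receptors called in nose at 7 days (8) depended on the setting. It was 20 at an adjusted p under 0.1, 1 with probe sets at or above the median of the tissue (4 members tested), 4 after quantile normalization, 28 with array weights (whose estimation stopped before converging in nose and over both tissues), 5 with a replicate block (3 of them among the 8) and 1 to 24 when each array was left out. Or52x1 was called in each of these that tested it. For the settings other than leaving out an array, the share of all probe sets called is not given here. Those counts are therefore no result about the class. No label states a pairing by replicate number, and in nose at 7 days r was −0.130 to −0.0120. The replicate block changed no other count by over 1.5 times (0 members in nose at 28 days, 112 and 115 for nose minus blood). In nose minus blood, probe sets at or above the 25th percentile left 27 members, of which 23 were called at 7 days and 26 at 28 days, and median centring gave 57 calls at 7 days. The interaction gave 0 to 1 calls when each array was left out. Nose at 28 days and both blood comparisons gave 0 calls in every setting run. In blood, and for nose minus blood, the filter at the median left no member to test, and the interaction has no fit on only the arrays compared. Signs turned for small differences when each array was left out: in nose at 28 days Or52ad1 ran from −0.32 to 0.036, Or52z12 from −0.25 to 0.013, Or51ac3 from −0.32 to 0.13, Or51e1 from −0.095 to 0.053 and Or52x1 from −0.020 to 0.24. In nose at 7 days Or52e4 ran from −0.19 (without control replicate 1) to 1.26, and in blood at 28 days Or51e1 from −0.14 to 0.076. The interaction of Or52h7 was 0.0050 after quantile normalization. The causes were not tested.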
